A study of Mus musculus with 74 samples.

Results

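The data describe 10 genes of hepatic lipogenesis in mouse liver that lacks GPS2, NCOR, SMRT or PPARα. The genes were Srebf1, Fasn, Acaca, Acacb, Acly, Scd1, Me1, Thrsp, Pnpla3 and Mlxipl, chosen by symbol as genes of the SREBP1 and LXR programme, with no threshold on a measured value but with earlier results of these data known. They were 10 of 14583 genes in the RNA-seq table, and all 10 were among the 12220 genes that passed the filter on low counts. In the 11 ChIP-seq tables, 826 of 743949 rows carried 1 of these symbols as the nearest gene, so a row is a region near a member and was not shown to act on it.

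GPS2 is a subunit of the corepressor complex that also holds NCOR or SMRT, and the study asked what GPS2 does in hepatocytes, with the other lines used to see whether it works with NCOR, SMRT and PPARα. Gps2 LKO mice carried floxed Gps2 and Alb-Cre, which acts in hepatocytes, and their controls, labelled WT, carried floxed Gps2 without Cre. Ncor LKO and Smrt LKO mice lacked Ncor or Smrt in the liver and were compared with the WT of their own line. Ppara KO mice carried the Ppara tm1Gonz allele and lacked Ppara in the whole body. All groups were chow-fed C57BL/6 mice of 8 to 12 weeks, stated to be male, and no line other than that of Gps2 had RNA-seq. RNA-seq covered 4 WT and 4 Gps2 LKO livers. The Gps2 line had 2 libraries per genotype for H3K27ac and for H3K4me3, 3 for NCOR, 3 for PPARα, and 1 for GPS2 and for Pol II. The Ncor line had 3 libraries per genotype for H3K27ac, GPS2 and PPARα. The Smrt line had 3 per genotype for H3K27ac. The Ppara line had 3 per genotype for GPS2 and for NCOR, and 2 per genotype for PPARα. Each ChIP sample pooled several immunoprecipitations, and whole liver holds cells that Alb-Cre does not reach. In such bulk samples, a change in the number of cells of a type and a change in RNA per cell cannot be told apart.

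De novo lipogenesis turns citrate into fatty acids and then into triglycerides. SREBP1c, encoded by Srebf1, switches on most enzymes of the path in response to insulin, and the nuclear receptor LXR switches on Srebf1 and several of the enzymes. ChREBP, encoded by Mlxipl, adds the response to glucose. ACLY (ATP citrate lyase) makes acetyl-CoA, ACC1 and ACC2 (Acaca and Acacb) carboxylate it to malonyl-CoA, FASN builds palmitate from it, and malic enzyme (Me1) supplies NADPH. SCD1 desaturates the product, PNPLA3 is a lipid droplet protein, and Thrsp, also called Spot14, encodes a small nuclear and cytosolic protein that rises with lipogenic stimuli. PPARα, which binds DNA as a partner of RXR, is best known for driving fatty acid oxidation, and NCOR and SMRT repress nuclear receptors when no ligand is bound.

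The sequences shown here are 200-base windows centred on member rows of the PPARα tables. They were chosen because PPARα tags fell there in Ppara KO or rose there in Gps2 LKO by the tests described further on, except the Pnpla3 window 11562 bases upstream, which had the most PPARα tags of the Pnpla3 rows and also fell. The Fasn and Acaca windows were taken from rows with such a fall that held a DR1 match, so their matches are part of the choice. All are from the mm9 plus strand, written 5′ to 3′, and distances are from the row centre to the transcription start site (TSS) of the nearest gene, negative upstream. Capitals mark matches on either strand to 4 motifs and their half-site. The motifs were the direct repeats DR1 (AGGTCANAGGTCA, typical of PPARα with RXR) and DR4 (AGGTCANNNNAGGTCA, typical of LXR with RXR), each with up to 2 mismatches, the E-box CACGTG and the sterol element TCACNCCAC. The half-site was AGGTCA, and it overlaps any exact unit of a direct repeat.
Pnpla3 11299 bases upstream (chr15:83986847-83987046): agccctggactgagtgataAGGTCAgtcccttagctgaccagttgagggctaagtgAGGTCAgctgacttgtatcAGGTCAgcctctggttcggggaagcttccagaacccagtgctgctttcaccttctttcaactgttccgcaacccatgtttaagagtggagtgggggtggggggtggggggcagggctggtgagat
Pnpla3 11562 bases upstream (chr15:83986584-83986783): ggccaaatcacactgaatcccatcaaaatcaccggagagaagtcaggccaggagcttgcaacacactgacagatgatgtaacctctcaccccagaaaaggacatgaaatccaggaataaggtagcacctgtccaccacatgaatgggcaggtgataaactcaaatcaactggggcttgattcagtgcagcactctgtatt
Pnpla3 5690 bases upstream (chr15:83992456-83992655): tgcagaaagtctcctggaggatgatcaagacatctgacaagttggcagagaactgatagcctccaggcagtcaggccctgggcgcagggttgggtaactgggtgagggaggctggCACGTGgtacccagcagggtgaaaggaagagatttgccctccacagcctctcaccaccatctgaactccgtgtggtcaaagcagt
Scd1 10462 bases upstream (chr19:44492561-44492760): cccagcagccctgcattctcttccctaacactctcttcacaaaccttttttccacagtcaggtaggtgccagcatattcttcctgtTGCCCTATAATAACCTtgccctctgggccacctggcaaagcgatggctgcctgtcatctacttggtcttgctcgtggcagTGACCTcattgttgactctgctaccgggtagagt
Scd1 17859 bases downstream (chr19:44464240-44464439): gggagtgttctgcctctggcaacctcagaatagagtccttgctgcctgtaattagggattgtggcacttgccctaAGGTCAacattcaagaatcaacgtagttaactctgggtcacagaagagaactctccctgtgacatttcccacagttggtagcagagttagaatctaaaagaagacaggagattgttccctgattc
Thrsp 1341 bases upstream (chr7:104567301-104567500): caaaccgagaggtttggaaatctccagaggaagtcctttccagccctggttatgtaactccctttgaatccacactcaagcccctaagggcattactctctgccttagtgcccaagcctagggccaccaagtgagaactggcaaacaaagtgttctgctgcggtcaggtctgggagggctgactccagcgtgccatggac
Fasn 6388 bases upstream (chr11:120692149-120692348): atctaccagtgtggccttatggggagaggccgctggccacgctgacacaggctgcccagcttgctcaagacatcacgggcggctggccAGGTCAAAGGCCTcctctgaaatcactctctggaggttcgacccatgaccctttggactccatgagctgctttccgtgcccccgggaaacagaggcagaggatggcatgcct
Acaca 23722 bases downstream (chr11:84032562-84032761): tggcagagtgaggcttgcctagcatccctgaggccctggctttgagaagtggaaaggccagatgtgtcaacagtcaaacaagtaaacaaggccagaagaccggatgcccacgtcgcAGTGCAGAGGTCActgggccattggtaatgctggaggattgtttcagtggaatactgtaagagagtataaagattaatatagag
Me1 43897 bases downstream (chr9:86537209-86537408): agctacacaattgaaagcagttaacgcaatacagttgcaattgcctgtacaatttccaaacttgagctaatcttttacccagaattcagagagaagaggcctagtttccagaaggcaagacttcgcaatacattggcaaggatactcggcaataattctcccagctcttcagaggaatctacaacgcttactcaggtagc
Of these windows, those of Fasn and Acaca held the DR1 match they were chosen for. That of Scd1 upstream held a DR4 match, and that of Pnpla3 5690 bases upstream held an E-box. The first Pnpla3 window held 3 half-sites, and the windows of Thrsp, of Me1 and of Pnpla3 11562 bases upstream held none of the letters searched. The same choice also gave rows at distances -233 and -3003 for Thrsp and 13566 for Scd1. Their windows held none of the letters searched either and are not printed. Over all 66 member windows of the PPARα table of the Ppara line, 7 held a DR1 match, 10.6% against 14.0% of all 40214 windows. DR4 matches stood in 6.06% of member windows against 5.20% of all, E-boxes in 6.06% against 4.54%, half-sites in 30.3% against 32.6%, and the sterol element in 0 of 66 against 0.778%. In the PPARα table of the Gps2 line, 16 of 119 member windows (13.4%) held a DR1 match, against 13.3% of all 102417 windows. A match is a description of letters, not a binding site. RefSeq promoters (GRCm38.p6, 300 bases around the start) were found for 9 members. The Mlxipl promoters held an E-box and, at another start, a sterol element, those of Acacb and Acly held a half-site, and the other promoters held none of the motifs. Among all 32851 promoters, 7.15% held an E-box, 1.24% a sterol element and 16.3% a half-site.

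In mm9 (GENCODE models), Pnpla3 lies at chr15:83998246-84019942, Scd1 at chr19:44468941-44482199, Thrsp at chr7:104561448-104566240, Fasn at chr11:120667254-120685492 and Me1 at chr9:86474970-86589947. Acaca lies at chr11:83943174-84215153, Acacb at chr5:114596544-114700770, Acly at chr11:100337667-100389314, Mlxipl at chr5:135582761-135614254 and Srebf1 at chr11:60012591-60036083. The Pnpla3 windows printed here are intergenic.

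RNA-seq libraries held 13.2 to 20.1 M counts. ChIP libraries held 25.02 to 29.4 M tags for H3K27ac of the Gps2 line, 15.3 to 19.0 M for H3K4me3, 34.3 to 46.1 M for H3K27ac of the Ncor and Smrt lines, and 7.9 to 22.1 M for the factors. Gps2 RNA was 15.1 to 16.7 CPM in WT and 9.17 to 12.9 CPM in the Gps2 LKO libraries, a fall by 0.53 on the log2 scale (SE 0.11, edgeR adjusted p = 0.0021), with no overlap. The source of the Gps2 RNA that remained was not tested. Sex-linked signals went against 1 line. The RNA-seq libraries held 0 to 15 counts of Xist and 2164 to 3525 counts of 4 Y-linked genes, and the Ncor line held 306 to 371 tags per 10000000 in 5 Y-linked H3K27ac rows. All 6 Smrt line libraries held 0 tags in those rows and 249 to 289 tags per 10000000 in the Xist row, against 2.93 to 4.92 in the Ncor line, although the mice were stated to be male. Genotypes within each line did not differ in this, but any difference between the Ncor and Smrt lines cannot be told apart from this one.

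RNA of 8 of the 10 members was higher in Gps2 LKO than in WT liver and that of none was lower, at an adjusted p below 0.05 in edgeR's quasi-likelihood test over all genes tested. Of all genes tested, 23.4% were called higher and 21.4% lower. The largest change was that of Pnpla3, at 6.65-fold, and the rest of the called members rose between 1.23-fold and 1.91-fold. The median log2 change of the members was 0.71, against 0.03 for all genes tested. At an unadjusted p below 0.05 no member was lower either, and DESeq2 called the same numbers. Every Gps2 LKO library lay above every WT library for 8 members (80% of them), against 20.0% of all genes tested. Values are CPM (counts scaled by TMM to the library total), n = 4 per genotype, given in the order of the replicate numbers.

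**Figure D1:**
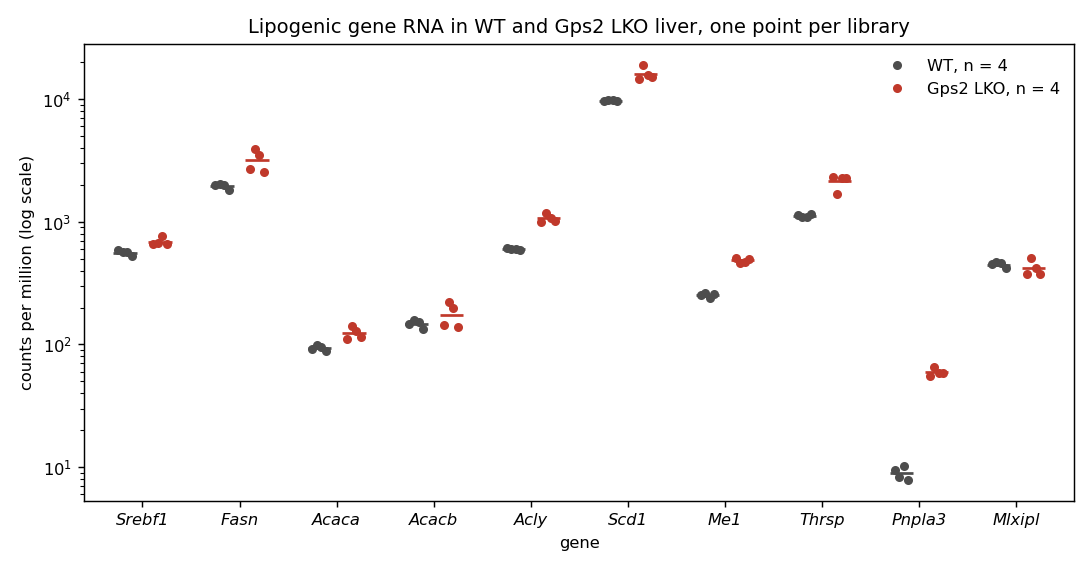
RNA of the 10 members by library, in CPM on a log axis, for WT (grey) and Gps2 LKO (red), n = 4 each, with a bar at the mean. Pnpla3 shows the widest gap, 8 members show no overlap of the genotypes, and Acacb and Mlxipl overlap.

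Among the regulators, Srebf1 moved little. It was at 590, 566, 562 and 527 CPM in WT and 659, 676, 764 and 661 CPM in Gps2 LKO, 1.23-fold higher (log2 0.30, SE 0.063, adjusted p = 0.0021). The genotypes did not overlap, and 1 LKO library lay above the other three. The table does not separate the SREBP1a and SREBP1c transcripts, nor the mature SREBP1 protein. Mlxipl was at 450, 468, 458 and 418 CPM in WT and 373, 511, 418 and 374 CPM in LKO, which overlapped (log2 -0.10, SE 0.090, adjusted p = 0.40). Without LKO replicate 2, its highest library, Mlxipl was called lower (log2 -0.23, adjusted p = 0.0011). Thrsp was at 1135, 1100, 1094 and 1156 CPM in WT and 2328, 1679, 2296 and 2262 CPM in LKO, 1.91-fold higher (log2 0.93, SE 0.089, adjusted p = 2.8e-06). All 4 LKO libraries were above WT, with 1 of them lower than the others.

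RNA of the enzymes that supply acetyl-CoA and NADPH was called higher for both. Acly stood at 607, 600, 596 and 594 CPM in WT and at 1000, 1184, 1065 and 1014 CPM in LKO, 1.78-fold higher (log2 0.83, SE 0.061, adjusted p = 2.0e-07). Me1 stood at 252, 261, 241 and 260 CPM in WT and at 506, 458, 473 and 502 CPM in LKO, 1.91-fold higher (log2 0.94, SE 0.057, adjusted p = 3.1e-08). Both had tight replicates and no overlap.

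Of the acetyl-CoA carboxylases, RNA of Acaca (cytosolic ACC1) rose and that of Acacb (mitochondrial ACC2) did not pass the test. Acaca was at 91.3, 99.0, 94.7 and 88.9 CPM in WT and 112, 141, 129 and 115 CPM in LKO (log2 0.41, SE 0.078, adjusted p = 0.0010). Acacb was at 148, 157, 152 and 134 CPM in WT and 144, 220, 199 and 139 CPM in LKO, so LKO libraries spread on both sides of WT (log2 0.25, SE 0.13, adjusted p = 0.12). Its call depended on 2 libraries and on exon length. It was called higher without LKO replicate 1 (adjusted p = 0.041) or without LKO replicate 4 (adjusted p = 0.034), and after a trend of the log2 change with exon length was removed in each library (log2 0.47, adjusted p = 1.5e-05). That trend was a Spearman correlation of -0.40 between log2 change and exon length over 12220 genes, which share these libraries. The same removal moved Fasn from 0.69 to 0.96 and Acaca from 0.41 to 0.66. It lowered Thrsp, which had the shortest exon length of the members, from 0.93 to 0.67, and Thrsp was still called higher.

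At the later steps, Fasn was at 1981, 2047, 1981 and 1831 CPM in WT and 2684, 3943, 3496 and 2550 CPM in LKO, 1.62-fold higher (log2 0.69, SE 0.11, adjusted p = 3.5e-04). Scd1 was at 9604, 9892, 9867 and 9636 CPM in WT and 14721, 19111, 15808 and 15194 CPM in LKO, 1.66-fold higher (log2 0.73, SE 0.075, adjusted p = 5.6e-06). Neither overlapped between genotypes, and in both the LKO libraries spread more widely than WT. Pnpla3 was at 9.49, 8.26, 10.2 and 7.83 CPM in WT and 55.0, 65.8, 58.8 and 58.5 CPM in LKO (log2 2.73, SE 0.097, adjusted p = 9.9e-11). Its lowest LKO library was thus several times its highest WT library.

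Levels between genes can be compared only per exon length, as RPKM. On that scale Scd1 was the most abundant member in WT, at a mean of 2016 RPKM, followed by Thrsp at 1018, Fasn at 197, Acly at 135, Srebf1 at 130, Mlxipl at 123 and Me1 at 70.8. Acacb was at 17.4, Acaca at 10.4 and Pnpla3 was lowest at 1.92 RPKM. In LKO, Pnpla3 was still lowest at 12.8 RPKM, beside Acaca at 13.7, and Me1 at 135 RPKM passed Mlxipl at 115.

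Other genes of the path moved with the members. Of 20 other genes of fatty acid and triglyceride synthesis, 16 were higher, with a median log2 change of 0.48. At the top were G6pdx, which makes NADPH, at 4.05 ± 0.45 CPM in WT and 15.8 ± 1.1 in LKO (SD, n = 4, log2 1.97, adjusted p = 8.5e-09), and the desaturase Fads1, at 635 ± 11 and 1341 ± 89 CPM (log2 1.08, adjusted p = 7.6e-09). Dgat1, Gpam, Hacd2 and Mcat did not pass the test.

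Of 13 other LXR targets, 8 were higher and 3 lower, with a median log2 change of 0.31. Pltp, the phospholipid transfer protein, rose most (log2 1.71, adjusted p = 4.6e-10), followed by Apoc1 (log2 1.02, adjusted p = 3.7e-06). Abca1, the cholesterol exporter, fell (log2 -0.58, adjusted p = 7.2e-04), as did Cyp7a1, the rate-limiting enzyme of bile acid synthesis (log2 -0.46, adjusted p = 7.2e-04), and Smpdl3a. Of all genes tested, 23.4% were higher and 21.4% lower, so the share of these LXR targets that were lower was near that of all genes. Of 14 regulators of SREBP1, LXR and ChREBP, 4 were higher and 4 lower, also near the shares of all genes. Mid1ip1, a paralog of Thrsp (log2 0.44), and Insig1, which holds SREBPs in the endoplasmic reticulum (log2 0.42), were the largest rises. Srebf2, the cholesterol-pathway SREBP (log2 -0.56), and Med1, a Mediator subunit (log2 -0.46), were the largest falls. Nr1h3, which encodes LXRα, and Mlx, the partner of ChREBP, did not pass the test.

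Other gene groups also differed between the same libraries, and their part in the members' changes was not tested. Of a female-biased list of 15, 14 genes were in the table and 9 passed the filter on low counts. All 9 were higher in LKO, against 23.4% of all genes tested, led by Cyp2a4 and Cyp2b9. A gene low in WT could pass that filter through its LKO libraries alone, so this count leans towards rises. Summed levels of the list were 32.6 to 38.1 CPM in WT and 1266 to 1512 CPM in LKO. Of 15 male-biased genes 12 were lower, against 21.4% of all genes tested (9205 to 9748 CPM in WT, 6174 to 7822 CPM in LKO), led by Mup7 and Elovl3. Of 14 tested clock genes 3 were higher and 5 lower (1031 to 1064 CPM in WT, 887 to 989 CPM in LKO), with a median log2 change of -0.08, and the share higher was near that of all genes. Stellate cell markers were higher for 5 of 5 (134 to 140 CPM in WT, 243 to 257 in LKO), Kupffer cell markers for 5 of 6 (132 to 135, 171 to 200), cholangiocyte markers for 3 of 5 (64.4 to 68.8, 91.2 to 112) and endothelial markers for 2 of 5 (104 to 111, 115 to 126). Hepatocyte markers were higher for 3 of 6, at 106291 to 110170 CPM in WT and 144018 to 171437 CPM in LKO, the highest sums of these lists. Beside these marker counts, 23.4% of all genes tested were called higher. With the exon length trend removed, 4 Kupffer cell and 3 endothelial markers were higher, and the counts of the other cell types stayed. Of 5 adipocyte markers, Adipoq, Plin1, Lep and Retn were not in the table, and Fabp4 was at 5.61 to 7.44 CPM in WT and 10.7 to 16.1 in LKO.

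The genes outside the members whose levels followed the members' mean most closely over the 8 libraries were Neat1, a nuclear RNA (Pearson r = 0.989), Mycl, a MYC family factor (r = 0.989), and Fads2, a desaturase (r = 0.987). These r values rest on a common step between 2 genotypes.

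H3K27ac, a mark of active enhancers and promoters, passed the test at no member in Gps2 LKO. Of 79 member rows in the histone table, 39 overlapped a listed H3K27ac peak in at least 2 libraries and were tested. None was called in edgeR, against 1.21% of all rows called higher and 0.212% lower. At an unadjusted p below 0.05, 2 were higher and 5 lower, while 6881 of all 47108 rows changed in either direction. DESeq2 called 0 member rows. The median log2 change was 0.06 over the members and 0.06 over all rows. Tags summed per gene were not called for any of the 10 members by edgeR or DESeq2, against 1.63% of genes higher and 0.207% lower, and 1 higher and 1 lower had an unadjusted p below 0.05. Without LKO replicate 1, 1 row was called higher and 2 lower, against 4.05% and 2.33% of all rows, and 2 sums were called. These sums are in tags per 10000000 tags of the library, n = 2 per genotype, so an effect below the spread of 2 libraries was not detectable.

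Pnpla3, with the largest RNA change, had the lowest H3K27ac sum, at 13.2 and 16.0 in WT and 18.8 and 16.0 in LKO (log2 0.24, adjusted p = 0.69). That sum rests on 1 row, and tags in rows assigned to a neighbouring gene do not enter it. Scd1 was at 2088 and 1451 in WT and 2118 and 1410 in LKO, and Fasn at 2214 and 1787 in WT and 2061 and 2040 in LKO, both with overlap. Acly was at 1453 and 1204 in WT and 1142 and 1161 in LKO (log2 -0.21, adjusted p = 0.40), below WT while its RNA was higher. Me1 had the largest rise of the sums, from 200 and 201 to 249 and 271 (log2 0.37, SE 0.083, adjusted p = 0.081), and Acacb the largest fall, from 953 and 958 to 808 and 609 (log2 -0.43, SE 0.13, adjusted p = 0.16). Srebf1, at 2100 and 1996 in WT and 1938 and 2162 in LKO, had a log2 change of 0.00. Thrsp (0.08), Mlxipl (0.13) and Acaca (-0.18) also missed the threshold.

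H3K4me3, a promoter mark, was above WT in value at every member tested and passed the test at 1, Fasn. Of 11 member rows with a listed H3K4me3 peak, 1 was called higher, against 0.798% of all rows, and all 11 had a log2 change above 0. Summed per gene, 8 members could be tested, since Me1 and Pnpla3 had no row with a listed peak in 2 libraries. Fasn was called, at 1547 and 1358 in WT and 2169 and 1761 in LKO (log2 0.44, SE 0.097, adjusted p = 0.0499), against 0.983% of genes called higher. The Fasn sum rests on 1 row, 24095 bases wide, which reaches beyond the promoter on both sides. Both LKO libraries lay above both WT libraries for 6 of the 8, against 29.6% of all genes. Thrsp followed with 950 and 995 in WT and 1141 and 1306 in LKO (log2 0.33, adjusted p = 0.059). Acly was at 937 and 916 in WT and 1082 and 1050 in LKO (log2 0.20, adjusted p = 0.27), and Srebf1 at 782 and 738 in WT and 854 and 844 in LKO (log2 0.16). The Srebf1 sum joins 2 rows. That over the promoter overlapped between genotypes, at 651 and 535 in WT and 631 and 575 in LKO (log2 0.02). That at distance -23299, in an intron, was at 131 and 203 in WT and 222 and 269 in LKO (log2 0.56), so the rise of the sum came from there. Scd1 overlapped between genotypes, at 887 and 592 in WT and 1208 and 760 in LKO (log2 0.41, adjusted p = 0.55). The median of the members was 0.18 against 0.05 over all genes, and with TMM scaling it was 0.14 and no member was called. The sum call was lost without WT replicate 1 or without WT replicate 2, and 2 sums were called without LKO replicate 2.

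**Figure D2:**
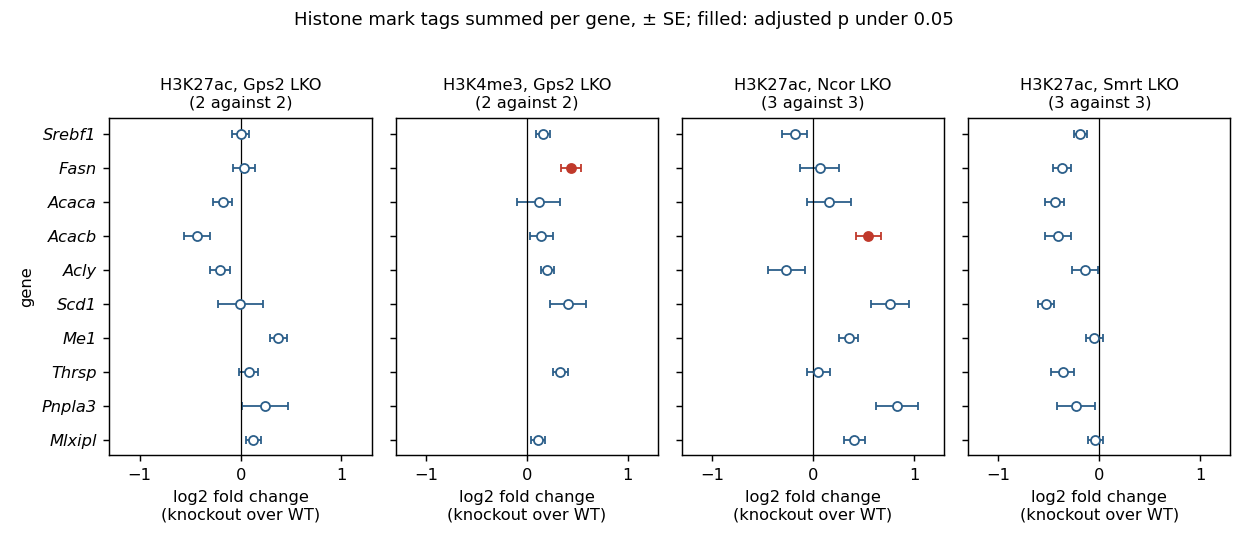
Log2 change ± SE of histone tags summed per member in 4 comparisons: H3K27ac and H3K4me3 in Gps2 LKO (n = 2 per genotype), and H3K27ac in Ncor LKO and in Smrt LKO (n = 3 per genotype). Filled red points passed an adjusted p of 0.05, which were Fasn for H3K4me3 and Acacb for H3K27ac in Ncor LKO, and in Smrt LKO all 10 points lie below 0.

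RNA and H3K27ac changes per gene were set side by side in the Gps2 line, from separate sets of libraries. The signs were the same in 5 of 10 members (50%), against 59.0% of all 11030 genes with both values. The correlation across the 10 members was r = 0.45 (Spearman 0.47), against r = 0.46 (Spearman 0.28) across all genes, and r = 0.30 over the 9 members without Pnpla3. For H3K4me3, 7 of 8 members had the same sign as their RNA, against 63.4% of 10631 genes, with r = 0.72 over the members and 0.49 over all genes. These are descriptions across genes that share their libraries.

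**Figure D3:**
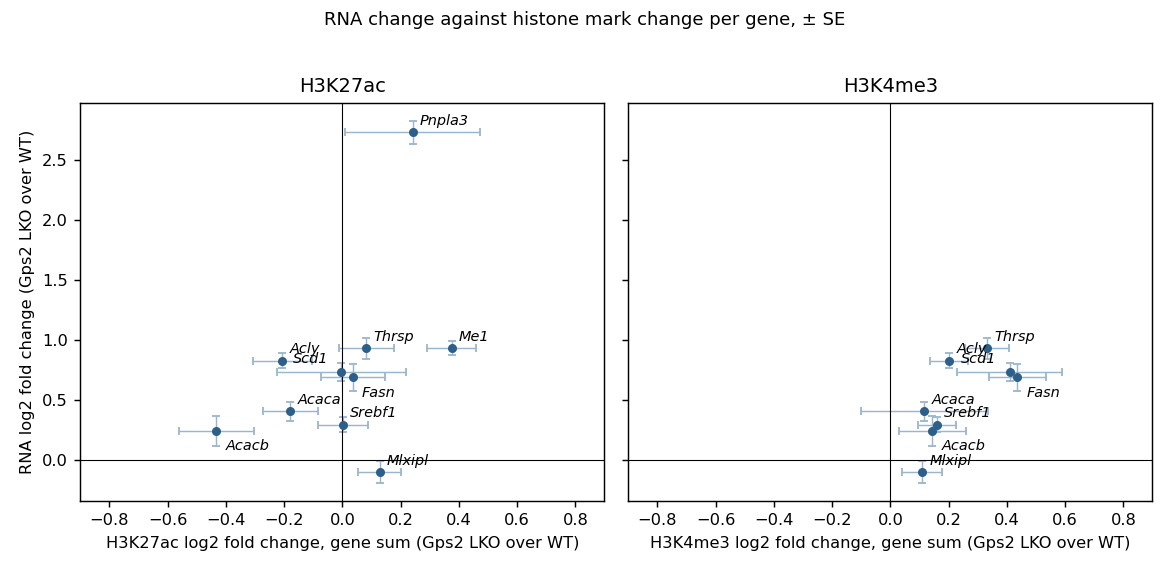
RNA log2 change in Gps2 LKO (vertical) against the log2 change of summed H3K27ac (left) or H3K4me3 (right) tags for each member, ± SE. Pnpla3 stands at an RNA change of 2.73 with an H3K27ac change of 0.24, and Acly, Acaca and Acacb lie left of 0 for H3K27ac with RNA changes above 0.

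Pol II and GPS2 were each measured in 1 library per genotype, so they have no replicate check and the intervals given are 95% exact Poisson intervals, which cover counting error alone. GPS2 tags were lower in Gps2 LKO in 67 of 67 member rows, and in 99.9% of all rows. Summed over the member rows they were 1308 tags per 10000000 in WT and 52.1 in LKO. The intervals did not overlap in 58 of the 67 rows (86.6%), against 78% of all rows, and 62 rows held at most 3 tags in LKO. The highest WT row was near Mlxipl 1534 bases downstream of its start, at 73.6 (60.7 to 88.4) in WT and 0 (0 to 2.49) in LKO. The row 11592 bases upstream of Pnpla3 was at 60.7 (49.0 to 74.2) in WT and 0 in LKO. Scd1 had 49.0 and 2.03 at 8700 bases upstream, Thrsp 37.4 and 0.68 at 1480 bases upstream, and Fasn 34.8 and 2.70 at 6397 bases upstream.

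Pol II tags over 37 member rows summed to 2875 per 10000000 in WT and 2796 in LKO, with 21 rows lower (56.8%) and 16 higher in LKO, against 41.2% of all rows lower. Intervals stood apart in 3 rows (8.11%), against 2.73% of all rows. At Scd1 they were 207 (181 to 235) in WT and 114 (95.9 to 135) in LKO near the start, and 79.8 and 31.1 at 13745 bases downstream, so Pol II was lower there in the LKO library while Scd1 RNA was higher. A row 26469 bases upstream of Srebf1 was at 10.3 in WT and 30.3 in LKO. At the Pnpla3 start the values were 112 (93.0 to 132) and 135 (115 to 157), which overlapped. Values at the start were 275 and 277 for Fasn, 245 and 246 for Acly, 323 and 309 for Thrsp, and 148 and 163 for Me1. Srebf1 and Mlxipl had rows at several annotated starts. Those with the most tags were at 258 and 250 for Srebf1, at a start within the gene model given above, and at 176 and 214 for Mlxipl. Rows at other starts included 102 and 97.5 for Srebf1 and 82.4 and 100 for Mlxipl.

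In Ncor LKO liver, H3K27ac rose in 4 of 61 member rows and fell in none by edgeR. That was 6.56% of the member rows, against 2.32% of all rows called higher, and DESeq2 called 9 higher. At an unadjusted p below 0.05, 20 were higher and 0 lower, while 10686 of all 68817 rows changed in either direction. The member median was 0.22 on the log2 scale, against -0.00 for all rows. Of the 4, 2 lay in Me1. One, 6972 bases downstream of the start, was at 7.42, 5.51 and 5.37 in WT and 30.5, 16.8 and 17.4 in LKO (log2 1.83, SE 0.29, adjusted p = 0.010). The other, 43683 bases downstream, was at 11.4, 9.59 and 8.28 in WT and 16.7, 23.2 and 24.5 in LKO (log2 1.14, adjusted p = 0.022). Genotypes overlapped in neither. Both regions held GPS2, NCOR and PPARα sites in other tables.

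The row near Acacb, 6974 bases downstream, was at 7.68, 5.03 and 7.60 in WT and 13.8, 15.9 and 11.7 in LKO (log2 1.02, adjusted p = 0.045). It held 1 factor site, with NCOR but with neither GPS2 nor PPARα. The broad row over Scd1, 24605 bases wide, was at 932, 786 and 1246 in WT and 1939, 1708 and 1361 in LKO (log2 0.76, SE 0.17, adjusted p = 0.044). It contained 14 factor sites, 8 of them with GPS2, 11 with NCOR and 8 with PPARα. The share of all H3K27ac rows that hold such sites was not counted. No genotype overlap was seen in these rows, but all 4 calls rested on single libraries, and 0 remained without WT replicate 2, 1 without WT replicate 3 and 2 without LKO replicate 1 or without LKO replicate 2.

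Summed per gene, Acacb was called, at 827, 722 and 611 in WT and 1156, 1006 and 996 in Ncor LKO (log2 0.55, SE 0.12, adjusted p = 0.043), against 2.00% of genes called higher. That call was lost without WT replicate 2 or without LKO replicate 3. Every LKO library lay above every WT library for 5 members, against 9.54% of all genes. Pnpla3 was at 12.4, 10.3 and 12.5 in WT and 23.5, 23.4 and 16.1 in LKO (log2 0.83, SE 0.21, adjusted p = 0.072). Scd1 was at 1208, 996 and 1638 in WT and 2582, 2176 and 1755 in LKO (log2 0.76, adjusted p = 0.065), and Mlxipl at 1303, 1270 and 1286 in WT and 1981, 1648 and 1500 in LKO (log2 0.41, adjusted p = 0.080). Me1 was at 146, 139 and 137 in WT and 188, 182 and 170 in LKO (log2 0.35, adjusted p = 0.088). These 4 had no overlap and missed the threshold. Acly (-0.26) and Srebf1 (-0.18) were the members below 0.

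In Smrt LKO liver no member row was called by edgeR, nor was any row of the table called lower (0%). At an unadjusted p below 0.05, 12 member rows were lower and 0 higher, while 4079 of all 68800 rows changed in either direction. DESeq2 called 2 member rows lower, against 0.0305% of all rows. The member median was -0.24, against 0.01 for all rows. All 10 gene sums had a log2 change below 0, with a median of -0.30, and 5 had every LKO library below every WT library, against 9.97% of all genes. None was called by edgeR, 6 had an unadjusted p below 0.05 and DESeq2 called 2. These counts of sums are given without the share of all genes. Scd1 was at 1437, 1587 and 1395 in WT and 1038, 965 and 1061 in LKO (log2 -0.53, SE 0.075, adjusted p = 0.42), and Fasn at 2275, 1826 and 2095 in WT and 1581, 1677 and 1542 in LKO (log2 -0.37). Neither gene overlapped between genotypes.

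The difference between the Ncor and Smrt effects was tested in a single fit, and 2 of 61 member rows, both near Scd1, passed, against 0.330% of all rows. For the broad Scd1 row the difference was 1.24 on the log2 scale (SE 0.21, adjusted p = 0.022), from 1123, 1186 and 1042 in WT and 810, 762 and 818 in LKO of the Smrt line. The row 9763 bases upstream was at 206, 133 and 288 in WT and 544, 373 and 302 in Ncor LKO, and at 223, 300 and 245 in WT and 151, 127 and 149 in Smrt LKO (difference 1.81, SE 0.34, adjusted p = 0.038). In neither line alone did this row pass. The lines also differed in the sex-linked signals given above, and line, sex signal and deleted gene cannot be told apart.

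The 7 factor tables with replicates located 166 sites near the members once overlapping rows were merged with those of the unreplicated GPS2 table, of which 85 held GPS2, 122 NCOR and 125 PPARα. All 3 factors met at 69 sites, and 28 sites had rows in all 8 tables. Scd1 and Mlxipl had 6 of these each and Fasn 5. Pnpla3 had just 3 sites, 1 of them in all 8 tables, the intergenic one some 11.5 kb upstream whose windows are printed above.

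PPARα tags in Ppara KO served as a check of the antibody. At members, 33 of 66 rows (50%) were called lower, against 27.6% of all rows, and 53 rows (80.3%) had both KO libraries below both WT libraries, against 68.3% of all rows. The member median was -2.14 and that of all rows -1.68. By gene, 7 of 11 Scd1 rows were lower, 5 of 7 of Mlxipl, 4 of 6 of Thrsp, 4 of 8 of Fasn, 4 of 7 of Srebf1 and all 3 of Pnpla3, but 2 of 8 of Acaca, 2 of 6 of Acacb, 1 of 6 of Acly and 1 of 4 of Me1. The share of tags in rows was 2.14% and 2.44% in WT and 0.652% and 0.581% in KO. These calls rested on both WT libraries, and 0 remained without WT replicate 1 or without WT replicate 2. TMM scaling, which assumes that most rows do not change, left 5. Among rows with a mean of at least 10 tags, 18 of 20 member rows (90%) were called lower, against 96.5% of all rows. The medians there were -2.43 for the members and -2.80 for all rows, so the members' larger share and fall did not hold among these rows.

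The printed Scd1 window 10462 bases upstream was at 18.4 and 17.6 tags per 10000000 in WT and 0.69 and 0.73 in KO (log2 -4.50, adjusted p = 6.4e-05). Thrsp 1341 bases upstream was at 36.1 and 36.7 in WT and 3.43 and 2.20 in KO (log2 -3.64, adjusted p = 9.1e-06). The Thrsp row 233 bases upstream of the start was at 9.91 and 8.41 in WT and 0.69 and 0 in KO, and that 3003 bases upstream at 12.0 and 10.7 in WT and 1.37 and 0 in KO. Pnpla3 had 5.66 and 12.2 in WT and 0 in both KO libraries 11299 bases upstream, and 17.0 and 16.1 in WT and 4.12 and 2.93 in KO in the neighbouring window 11562 bases upstream (log2 -2.19, adjusted p = 0.0016). Me1 at its start was at 16.3 and 16.1 in WT and 1.37 and 1.47 in KO (log2 -3.43, adjusted p = 2.6e-04). These rows did not overlap between genotypes. A row within Fasn, 1484 bases downstream of the start, was at 32.6 and 2.29 in WT and 13.0 and 17.6 in KO, so the 2 WT libraries themselves disagreed there.

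In Gps2 LKO, PPARα tags were higher near most members, as over the whole table. The log2 change was above 0 in 111 of 119 member rows, with a median of 0.55 against 0.61 for all rows. Every LKO library lay above every WT library in 62 rows (52.1%), against 46.7% of all rows. The share of tags in rows was 19.2% to 21.9% in WT and 28.9% to 32.1% in LKO, and with TMM scaling the member median was -0.05 and 0 rows were called. The 3 WT libraries, which the methods call biological replicates, differed by less than sampling noise and were counted as 1 sample, so the spread was estimated from the LKO libraries alone and WT was assumed to vary like them. On that basis 4 rows (3.36%) were called higher, against 2.49% of all rows, and DESeq2 called 0. With the 3 libraries as separate samples, 51 were called (42.9%), against 36.6% of all rows, and without LKO replicate 2 there were 2. The number of calls thus depended on how the WT libraries were counted and scaled.

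The 4 rows called with WT as 1 sample lay near Scd1, Pnpla3 and Me1. Scd1 17859 bases downstream of its start was at 40.5, 49.4 and 41.7 in WT and 121, 124 and 107 in LKO (log2 1.41, SE 0.31, adjusted p = 0.0040), and the Scd1 row at 13566 bases was at 41.8, 38.9 and 54.1 in WT and 103, 83.4 and 86.8 in LKO (log2 1.01, adjusted p = 0.045). Pnpla3 5690 bases upstream was at 19.0, 22.8 and 28.2 in WT and 77.0, 64.4 and 42.2 in LKO (log2 1.35, adjusted p = 0.021). Me1 43897 bases downstream, in the region whose H3K27ac rose in Ncor LKO, was at 25.3, 23.7 and 22.5 in WT and 50.6, 75.8 and 51.6 in LKO (log2 1.28, adjusted p = 0.027). None of these overlapped. The strongest Pnpla3 site, 11452 bases upstream, was at 153, 178 and 162 in WT and 262, 258 and 215 in LKO, without overlap but short of the threshold (log2 0.55, adjusted p = 0.23).

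**Figure D4:**
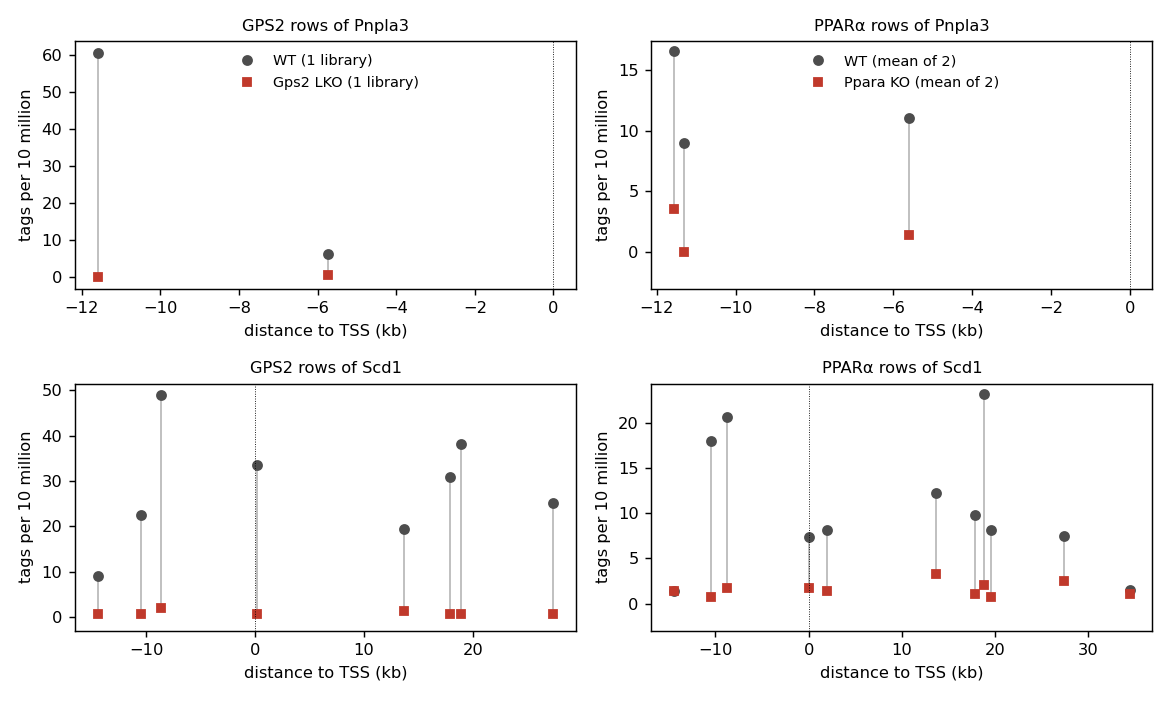
Tags per 10000000 at the Pnpla3 and Scd1 rows by distance to the start site in kb, for GPS2 (WT and Gps2 LKO, 1 library each) and PPARα (WT and Ppara KO, mean of 2 libraries each). The tallest Pnpla3 points lie some 11.5 kb upstream, and knockout points lie below the WT points there for both factors.

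In Ncor LKO, 0 of 89 member rows changed in PPARα tags by edgeR, against 0.151% of all rows called higher. At an unadjusted p below 0.05, 7 were higher and 0 lower, while 4506 of all 86168 rows changed in either direction. DESeq2 called 0 member rows. WT replicate 3 had 8.96% of tags in rows against 18.6% and 19.3% for the others, and without it 3 member rows were called higher (3.37%), against 0.344% of all rows. Me1 rows had the highest median of the members, at 0.92.

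GPS2 tags were lower in value in Ncor LKO over most of the table, and no member row was called. Of 67 rows, 59 were below 0, with a median of -1.32 against -1.12 for all rows. With TMM scaling the member median was -0.22, and 3 rows were called higher and 1 lower. edgeR called 0, against 0.0338% of all rows lower. At an unadjusted p below 0.05, 32 were lower, while 19323 of all 56278 rows changed in either direction. DESeq2 called 21 lower, 44.7% of the member rows with an adjusted p, against 32.4% of all rows. The 3 LKO libraries were lower than each WT library in 19 rows (28.4%), against 26.6% of all rows. Mlxipl 5716 bases upstream was at 90.1, 99.0 and 28.9 in WT and 15.3, 23.6 and 16.1 in LKO (log2 -1.98, adjusted p = 0.076). Pnpla3 11547 bases upstream was at 134, 85.6 and 45.0 in WT and 41.9, 41.9 and 37.9 in LKO (log2 -1.12, adjusted p = 0.16). In both, WT replicate 3 lay closest to LKO. That library had 3.07% of tags in rows against 7.82% and 8.23%, and without it 52 member rows were called lower (77.6%), against 59.1% of all rows in the same fit.

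In Ppara KO, GPS2 tags were below WT in 40 of 41 member rows, with a median of -0.97 against -0.93 for all rows and no call by edgeR or DESeq2, against 0.273% of all rows called lower. At an unadjusted p below 0.05, 13 were lower, while 6410 of all 27842 rows changed in either direction. Both groups were apart in 8 rows (19.5%), against 31.3% of all rows, and with TMM scaling the member median was -0.02. Pnpla3 11570 bases upstream was at 24.98, 24.1 and 56.9 in WT and 23.3, 9.08 and 10.8 in KO (log2 -1.28, adjusted p = 0.17), with no overlap. The member median thus lay close to that of the table.

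No member row passed the test for NCOR tags in Gps2 LKO. edgeR and DESeq2 called 0 of 76 rows, against 0.0124% of all rows higher and 0.00495% lower in edgeR. At an unadjusted p below 0.05, 1 row was lower, while 2253 of all 80813 rows changed in either direction. Pnpla3 11562 bases upstream was at 94.5, 105 and 68.4 in WT and 90.1, 111 and 48.3 in LKO, and Mlxipl 1496 bases downstream at 106, 112 and 80.6 in WT and 87.8, 130 and 57.0 in LKO, both with wide overlap. In Ppara KO, 1 of 124 rows was higher and 1 lower by edgeR, against 0.136% and 2.51% of all rows, and DESeq2 called 0. None remained without KO replicate 1 or without WT replicate 1, and 1 without WT replicate 3. The row that was lower lay near Mlxipl 11950 bases downstream, at 93.5, 108 and 118 in WT and 69.5, 76.7 and 52.7 in KO (log2 -0.68, adjusted p = 0.030). The row that was higher, 13354 bases upstream of Acacb, was at 13.0, 4.30 and 19.4 in WT and 26.2, 41.7 and 17.8 in KO (log2 1.22, adjusted p = 0.031), and its groups overlapped. Pnpla3 11395 bases upstream was at 89.4, 83.4 and 115 in WT and 99.7, 88.2 and 66.9 in KO, also with overlap.

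**Figure D5:**
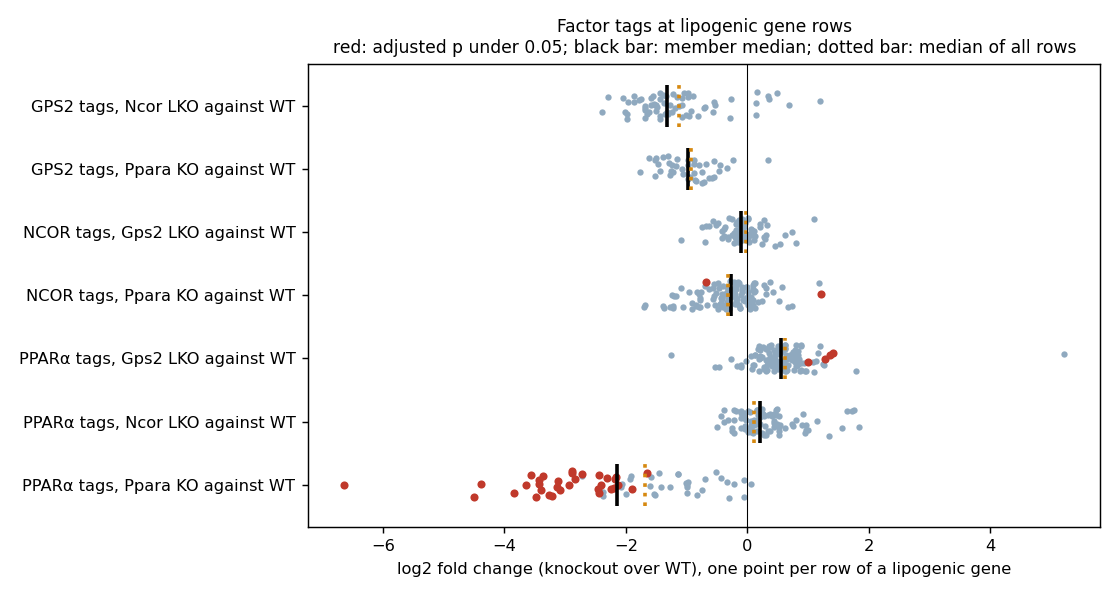
Log2 change of every member row in the 7 factor comparisons with replicates, with called rows in red, the member median as a black bar and the median of all rows of the table as a dotted bar. The widest gap between the member median and that of all rows is for PPARα in Ppara KO, at -2.14 against -1.68. Among rows with a mean of at least 10 tags, not drawn separately, these were -2.43 and -2.80.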

How the data were processed

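RNA-seq covered 8 livers and ChIP-seq 64 libraries, and samples were grouped by genotype from the labels. The 2 input libraries and most peak lists were not used. The authors aligned RNA reads with HISAT2 and deposited raw counts per gene, and aligned ChIP reads to mm9 with Bowtie, deposited with HOMER as raw tag counts per merged peak annotated to the nearest gene. Sources differ on the RNA counter (HOMER or Subread) and on DSG crosslinking of histone samples, and tool versions were not given in the sources used here. The exon coordinates of the RNA table touch the GRCm38 promoter of 9 of 9 members and match 0 mm9 models, so none is printed. Columns of the authors' own edgeR comparisons were not used. The 8 peak lists the authors deposited for the histone marks of the Gps2 line, with peak scores by HOMER, selected rows seen in at least 2 libraries of a mark.

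Each comparison was fitted over the whole table with edgeR 4.0.16 (quasi-likelihood test, R 4.3.3) and Benjamini-Hochberg adjustment, called at an adjusted p below 0.05. RNA used TMM scaling and edgeR's expression filter. ChIP used the library's total tags. Alternatives were TMM or RLE scaling, DESeq2 1.42.0, filters, leaving out each library and a replicate block. Tests were first run on simulated data. The members and gene lists were chosen with earlier results of these data known. The named rows were, per member and table, that nearest the start within 1000 bp, that with most tags and up to 5 called rows, beside the 2 largest called changes per list and the 3 closest genes by correlation. The study's methods describe its replicates as biological, while the labels name no animal, and p-values measure the spread between these samples. Intervals cover counting error.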

Additional observations from a re-analysis of the deposited data

Results flagged for a closer look

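Among the RNA values, 2 libraries stood apart from the rest of their group by Dixon's test, out of 20 groups of 4 tested, where chance alone flags about 1 in 20. Srebf1 was at 763.6 CPM in Gps2 LKO replicate 3, with the other 3 LKO libraries between 659.2 and 675.8 CPM. Thrsp was at 1679 CPM in Gps2 LKO replicate 2, with the others between 2262 and 2328 CPM. Both genes stayed above every WT library.

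The Ncor and Smrt effects on H3K27ac differed at 2 Scd1 rows in a test of the difference itself. The difference was 1.24 on the log2 scale in the row centred 10595 bases downstream of the Scd1 start and 1.81 in the row 9763 bases upstream. The lines also differ in sex-linked signals, and the part of this in the difference cannot be told apart.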

How the results depend on the processing

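The number of members called in RNA was 8 or 9 under every alternative run, and 9 with the exon length trend removed, with the block, or without LKO replicate 1, 2 or 4 in turn. Counts of called ChIP rows changed as follows, and the cause was not tested except where fewer libraries or rows entered. With TMM scaling, which shifted the median log2 change of all rows by over 0.1 in both GPS2 tables, in NCOR in Ppara KO and in the PPARα tables (for PPARα in Gps2 LKO from 0.61 to 0.02), called rows were 0 for H3K4me3 (sums 0), 4 for GPS2 in Ncor LKO (3 higher, 1 lower), 5 for NCOR in Ppara KO, 0 for PPARα in Gps2 LKO, 5 in Ncor LKO and 5 in Ppara KO, and Ncor H3K27ac sums gave 3. Of all rows, TMM scaling gave 1.78% higher and 0.458% lower for GPS2 in Ncor LKO and 0.759% higher for NCOR in Ppara KO. For PPARα it gave 1.27% higher in Ncor LKO and 3.15% lower in Ppara KO. DESeq2 called 9 H3K27ac rows (16.4%, against 3.83% of all rows) and 4 sums in Ncor LKO. In Smrt LKO it called 2 rows (3.28%, against 0.0305%) and 2 sums. It called 21 GPS2 rows in Ncor LKO (44.7% of those with an adjusted p, against 32.4%), 0 for NCOR in Ppara KO and 0 for PPARα in Gps2 LKO. A mean of at least 10 tags left 8 GPS2 rows in Ncor LKO (18.2%, against 15.7% of all rows). In Ppara KO it left 1 for NCOR (1.05%, against 2.89%) and 18 for PPARα (90%, against 96.5%). All rows of the shared histone table gave 0 for H3K4me3, sums within 10000 bp of the start gave 0 for H3K4me3 and 0 for H3K27ac in Ncor LKO, and 3 WT samples gave 51 for PPARα in Gps2 LKO.

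Samples were treated as unpaired, since no table with at least 3 pairs had every same-numbered correlation of deviations over 0.1 (RNA 0.084, 0.145, 0.036 and 0.163, ChIP -0.15 to 0.17). In the Gps2 line's histone tables, with 2 pairs each, the correlations were 0.179 for H3K27ac and 0.239 for H3K4me3, and the labels give no shared batch, so whether numbers mark pairs there is not known. With a replicate block, 9 members were called in RNA, and called rows were 2 for H3K27ac and 4 for H3K4me3 in Gps2 LKO, 1 for H3K27ac and 17 for GPS2 in Ncor LKO, and 0 for NCOR and 0 for PPARα in Ppara KO. Of all rows, the block called 4.23% higher and 1% lower for H3K27ac and 2.38% higher for H3K4me3 in Gps2 LKO. In Ncor LKO it called 1.26% of all rows higher for H3K27ac, and 18.6% lower for GPS2 against 25.4% of member rows. For PPARα in Gps2 LKO no block could be fitted, with the WT libraries counted as 1 sample.

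Leaving out 1 library gave 0 to 3 called H3K27ac rows (sums 0 to 2) and 0 to 2 H3K4me3 rows (sums 0 to 2) in Gps2 LKO, 0 to 4 H3K27ac rows (sums 0 to 1) and 0 to 52 GPS2 rows in Ncor LKO, 0 to 3 for NCOR in Ppara KO, and for PPARα 2 to 5 in Gps2 LKO, 0 to 3 in Ncor LKO and 0 to 28 in Ppara KO. A lone library left in a group was assumed to vary like the other groups. The signs of 9 uncalled sums turned. In Gps2 LKO H3K27ac, Srebf1 ran from -0.080 to 0.078 (TMM -0.044, within 10000 bp -0.059), Fasn from -0.11 to 0.20 (TMM -0.0083), Scd1 from -0.33 to 0.28 and Thrsp from -0.017 to 0.18, and Acacb H3K4me3 from -0.0053 to 0.32. In Ncor LKO, Fasn ran from -0.16 to 0.23, Acaca from -0.16 to 0.33 and Thrsp from -0.024 to 0.15, and in Smrt LKO Me1 from -0.11 to 0.0011. With 2 or 3 libraries per genotype, small changes at single rows were not detectable.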
